A study of Mus musculus with 19 samples.

Results

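The carboxylesterases described here are 10 mouse genes, Ces1c, Ces1d, Ces1e, Ces1f, Ces1g, Ces2a, Ces2b, Ces2c, Ces2e and Ces2g, measured in lung by 13 of the 55681 probes on the array. The family was chosen by the rise of Ces2e over the vehicle group in these same samples, and a probe was taken as a member where its RefSeq identifier maps to 1 of the 10 symbols. The Ces2e values against the vehicle group are therefore given as a description, without a test. Of the 13 probes, 9 probes of 8 genes passed the filter on low signal. Adult male MutaMouse animals, a transgenic strain that carries a reporter for mutation assays, received olive oil (D0, 5 mice) or a mixture of 8 polycyclic aromatic hydrocarbons (PAHs) in olive oil by gavage. The mixture was given at 15 (D1, 4 mice), 30 (D2, 5 mice) or 60 (D3, 4 mice) mg of benzo[a]pyrene (BaP) equivalents per kg body weight per day for 28 days, and lungs were taken 72 h after the last dose. The mixture held BaP, benz[a]anthracene, benzo[b]fluoranthene, chrysene, benzo[ghi]perylene, benzo[k]fluoranthene, dibenz[a,h]anthracene and indeno[1,2,3-cd]pyrene. Each array compared lung RNA, labelled with Cy5, with 1 Cy3-labelled reference RNA, a pool made from cell lines of the mouse. A value is the log2 ratio of lung over reference, so that a difference of 1 between groups means a 2-fold change in that ratio. No background was subtracted, so for a dim probe the change in the ratio can differ from that in lung RNA.

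Carboxylesterases are serine hydrolases of the endoplasmic reticulum that cleave ester, amide and thioester bonds. They hydrolyse drugs, pesticides and other foreign esters, and several also act on stored triglyceride and on other lipids of the cell. Enzymes of the Ces1 group prefer substrates with a bulky acyl part, and enzymes of the Ces2 group prefer a bulky alcohol part. In the mouse the family grew by tandem duplication, and the RefSeq gene table of assembly GRCm38.p6 lists 20 carboxylesterase symbols, all on chromosome 8. In that table Ces1a to Ces1h and Ces5a stand in 1 row, followed by Ces2a, Ces2b, Ces2c, the pseudogene Ces2d-ps, Ces2e, Ces2f, Ces2g and Ces2h, and then by Ces3a, Ces3b and Ces4a.

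The promoter windows of Ces2e, of Ces2c, which was called by 1 of its 2 tested probes, and of Ces2g, which lies near them and was not called, are shown side by side. Whether Ces2g differed from the others was not tested. Each window, from RefSeq and assembly GRCm38.p6, runs from 250 bases before an annotated transcript start to 50 bases from it on, and the bases from the start on are in capitals.
Ces2e, chr8:104926010-104926309, plus strand: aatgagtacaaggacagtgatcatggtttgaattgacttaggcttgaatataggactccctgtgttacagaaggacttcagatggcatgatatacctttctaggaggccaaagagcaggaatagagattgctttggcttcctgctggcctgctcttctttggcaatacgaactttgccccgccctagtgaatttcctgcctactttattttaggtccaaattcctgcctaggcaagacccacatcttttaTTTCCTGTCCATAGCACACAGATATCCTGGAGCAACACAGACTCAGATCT
Ces2c, chr8:104846818-104847117, plus strand: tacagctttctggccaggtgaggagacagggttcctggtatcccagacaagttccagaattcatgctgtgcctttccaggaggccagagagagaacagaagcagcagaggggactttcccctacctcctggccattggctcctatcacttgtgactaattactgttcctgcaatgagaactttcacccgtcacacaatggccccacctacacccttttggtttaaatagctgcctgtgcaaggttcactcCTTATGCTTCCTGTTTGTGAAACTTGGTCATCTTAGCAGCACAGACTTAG
Ces2g, chr8:104961468-104961767, plus strand: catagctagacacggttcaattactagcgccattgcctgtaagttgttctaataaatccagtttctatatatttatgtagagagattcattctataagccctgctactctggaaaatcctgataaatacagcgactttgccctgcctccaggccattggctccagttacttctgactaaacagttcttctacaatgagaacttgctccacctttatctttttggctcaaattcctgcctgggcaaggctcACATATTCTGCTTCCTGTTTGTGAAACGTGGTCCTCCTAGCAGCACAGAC

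A window was held for 7 of the 10 members, namely Ces1c, Ces1e, Ces1g, Ces2a, Ces2c, Ces2e and Ces2g. In a global alignment the Ces2e window shared 57.0% of its 300 bases with that of Ces2c, 58.7% with that of Ces2a and 53.0% with that of Ces2g. The Ces1c, Ces1g and Ces1e windows shared 41.7%, 43.0% and 47.3% with the Ces2e window. The Ces2c window shared more with that of the uncalled Ces2g, 62.7%, than with that of Ces2e. Over all 21 pairs of member windows identity ran from 41.3% to 66.3% (Ces2a with Ces2c). A pair of motifs was searched on both strands, the core GCGTG bound by the aryl hydrocarbon receptor (AHR) and the antioxidant response element TGACNNNGC. Neither set of letters was found in any of the 7 windows, whereas 32.4% and 12.4% of all 32851 windows in the table held them. A window of this length covers only the bases next to the start.

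Of the 8 member probes tested besides that of Ces2e, 2 were called higher than in D0 at each dose and none was called lower. A call required a change of 1.5-fold or more and a p of 0.05 or less after Benjamini-Hochberg adjustment, from limma over all 30999 tested probes. The called probes at D1, D2 and D3 were that of Ces2b and 1 of the 2 tested probes of Ces2c, which is 25.0% of the 8. Over all tested probes, 1.06% were called at D1 (0.594% higher), 0.626% at D2 (0.435% higher) and 2.43% at D3 (1.21% higher). With each array centred on its median in place of loess, Ces2b was called at no dose (changes of 1.13, 0.70 and 0.60, adjusted p = 0.106, 0.606 and 0.633) and Ces2c at D1 and D3 but not at D2. Ces2b was called at D1 and not at D2 or D3 on the signals as processed by the scanner software, where the changes at D2 and D3 were larger (1.16 and 1.00, adjusted p = 0.12 and 0.109), and with the lung channel alone, where they were smaller (0.48 and 0.40) and under 1.5-fold. The Ces2e probe is left out of this count because its rise chose the family. The median change of the 8 probes was 0.07, 0.12 and 0.18 on the log2 scale at D1, D2 and D3, against 0.0066, -0.0035 and -0.0020 over all tested probes. Ces2b, Ces2c and Ces2e lie near each other, as among the carboxylesterase symbols only the pseudogene Ces2d-ps comes between them in the gene table.

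**Figure D1:**
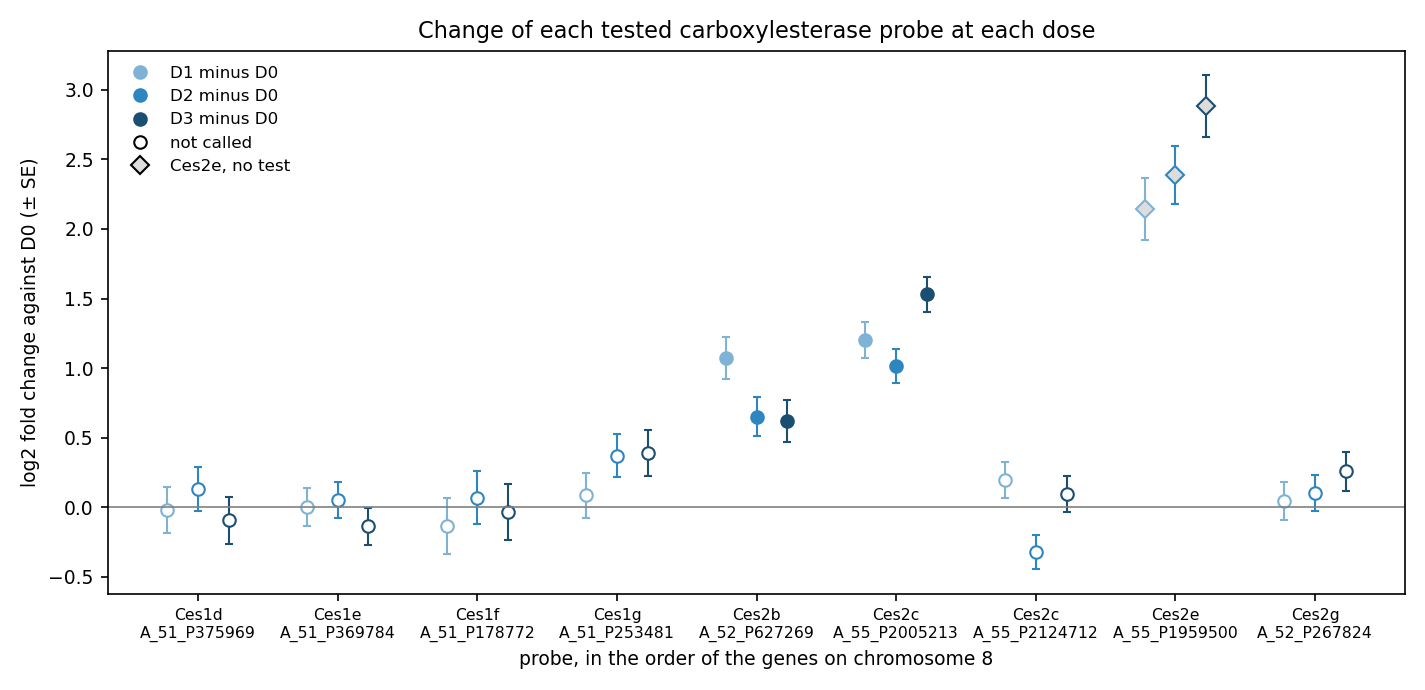
Log2 fold change against D0 (vertical axis, ± SE from limma) for each of the 9 tested carboxylesterase probes, in the order of the genes on chromosome 8, at D1, D2 and D3 from light to dark blue. Filled circles passed the adjusted p and the 1.5-fold threshold, and diamonds mark Ces2e, given without a test. The filled circles belong to Ces2b and to 1 probe of Ces2c, the Ces2e change reached 2.88 at D3, and Ces1d, Ces1e, Ces1f, Ces1g and Ces2g have open circles only.

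Ces2e, a Ces2-type enzyme, had the largest change of the members at every dose by its bright probe (A_55_P1959500, NM_172759). The log2 ratios of the 5 D0 mice were 0.31, 0.76, 0.34, 0.75 and 0.54, those of the D1 mice 2.63, 2.11, 3.31 and 2.68, those of the D2 mice 3.12, 2.94, 3.34, 2.95 and 2.29, and those of the D3 mice 3.30, 2.95, 3.75 and 3.68. Every dosed mouse was above every D0 mouse, and the 3 dosed groups overlapped one another. The group means were 0.54 ± 0.22 (SD, n = 5), 2.68 ± 0.49 (n = 4), 2.93 ± 0.39 (n = 5) and 3.42 ± 0.37 (n = 4). Relative to D0 the level was 4.42-fold at D1 (log2 2.14, SE 0.22), 5.24-fold at D2 (2.39, SE 0.21) and 7.37-fold at D3 (2.88, SE 0.22). The probe was well above background in both channels in all 18 mice, by the mark of the scanner software. Mouse 35 of D3 had 2 arrays, which gave 3.80 and 3.57 and were averaged.

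The order of the Ces2e means followed the dose, with overlap between neighbouring groups. The difference was 0.25 (SE 0.22) between D2 and D1, 0.49 (SE 0.22) between D3 and D2 and 0.74 (SE 0.23) between D3 and D1. These too are descriptions, since they rest on the dosed mice whose rise chose the family. Of the 8 other member probes none was called between doses. For D2 against D1, D3 against D2 and D3 against D1, 0%, 0.106% and 0.145% of all tested probes were called. At an unadjusted limma p under 0.05 there were 2, 2 and 2 of these 8 probes, and 9.83%, 11.7% and 7.67% of all tested probes (3046 probes for D2 against D1). These comparisons share mice, so they are not independent of each other.

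**Figure D2:**
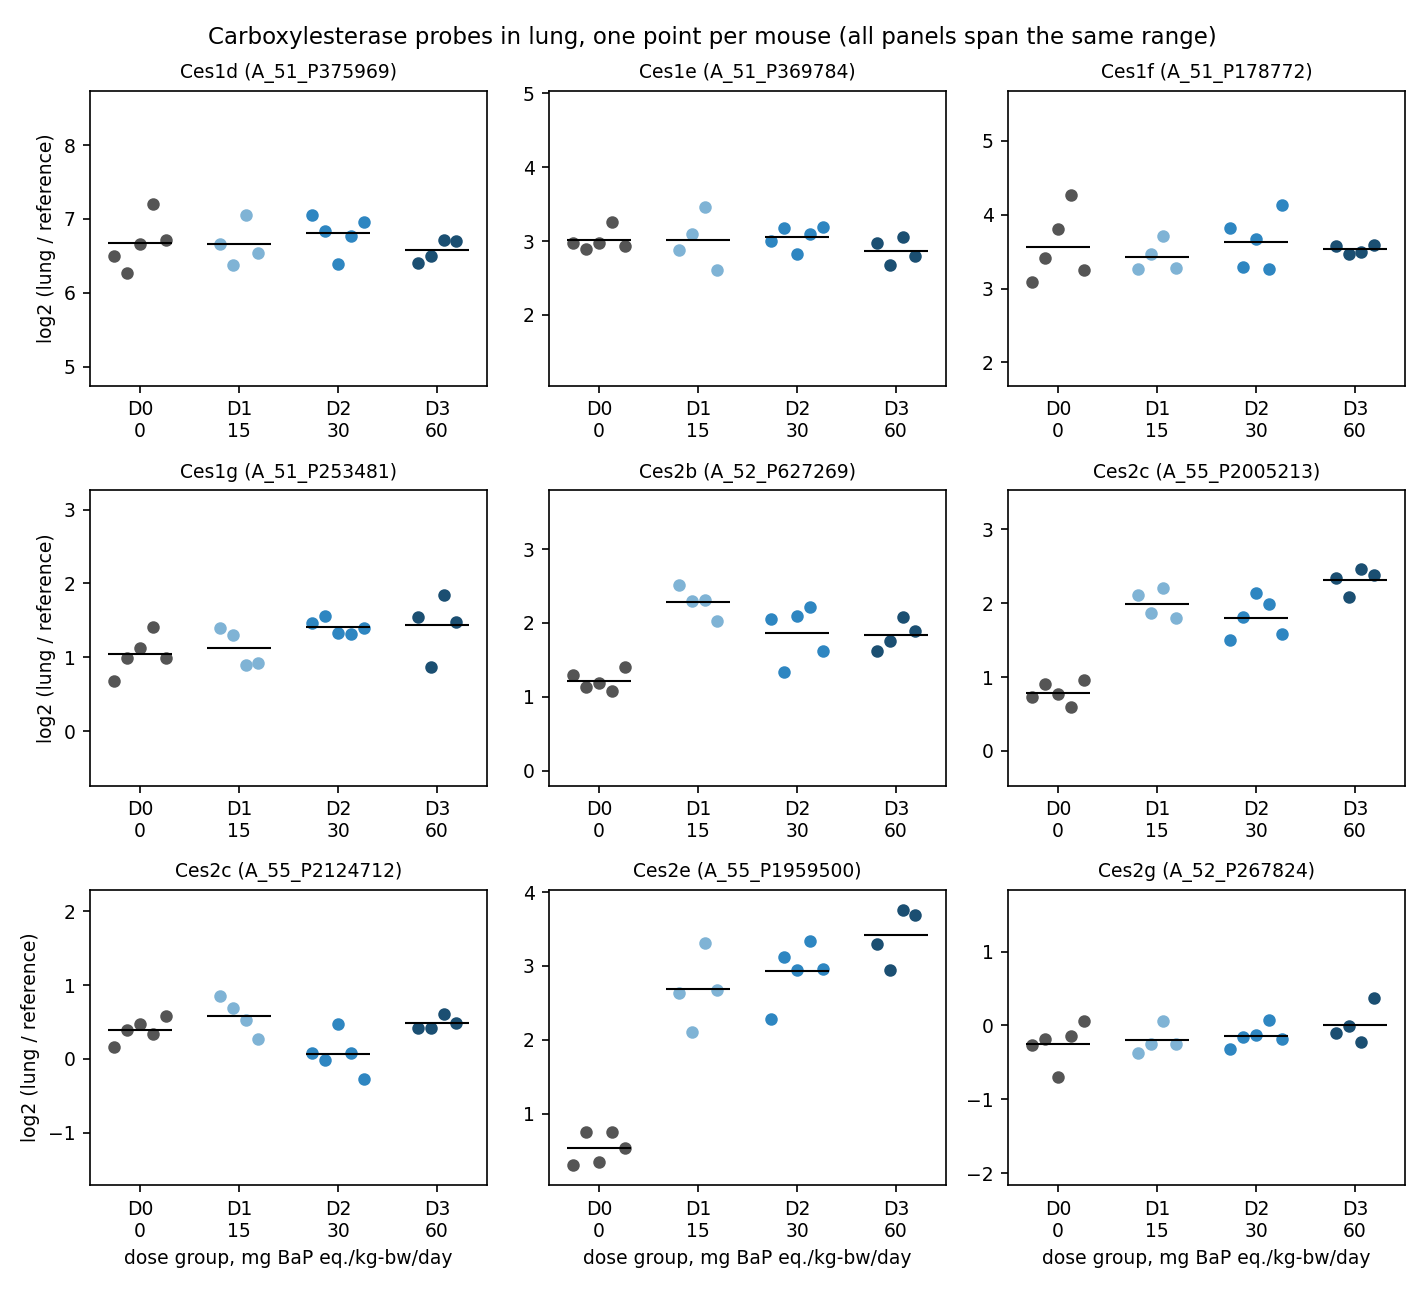
Log2 ratio of lung over reference RNA (vertical axis) for the 9 tested carboxylesterase probes by dose group in mg BaP equivalents per kg body weight per day (horizontal axis). Each point is 1 mouse in order of mouse number, the bar is the group mean, and each panel spans the same number of log2 units. Ces2e moves from 0.54 in D0 to 3.42 in D3, Ces2b is highest in D1 at 2.29, and Ces1d stays between 6.27 and 7.21 in all mice.

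Ces2c, a hydrolase of drugs and of glycerolipids, rose at every dose by its brightest probe (A_55_P2005213, NM_145603). Its log2 ratios were 0.73, 0.91, 0.77, 0.59 and 0.96 in the D0 mice, 2.10, 1.87, 2.20 and 1.80 in D1, 1.82, 2.13, 1.99, 1.58 and 1.505 in D2, and 2.34, 2.09, 2.47 and 2.38 in D3. Every mouse of the dosed groups lay above every D0 mouse. The change was 1.20 at D1 (SE 0.13, 2.30-fold, limma adjusted p = 3.02e-05), 1.02 at D2 (SE 0.12, 2.02-fold, adjusted p = 7.8e-05) and 1.53 at D3 (SE 0.13, 2.89-fold, adjusted p = 2.84e-07). D3 exceeded D2 by 0.51 (SE 0.13), which did not pass adjustment (adjusted p = 0.122).

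A second probe that carries the same RefSeq identifier for Ces2c (A_55_P2124712) was not called at any dose. Its log2 ratios were 0.16 to 0.58 in D0, 0.27 to 0.85 in D1, -0.27 to 0.47 in D2 and 0.41 to 0.61 in D3, and every dosed group overlapped D0. In D2 4 of 5 mice lay below the lowest D0 mouse. The changes were 0.20 (SE 0.13, limma adjusted p = 0.432), -0.32 (SE 0.12, adjusted p = 0.201) and 0.09 (SE 0.13, adjusted p = 0.708) at D1, D2 and D3. The bright probe minus this one, taken within each mouse, was 0.40 ± 0.13 (SD, n = 5) in D0 and 1.41 ± 0.23 (n = 4), 1.74 ± 0.20 (n = 5) and 1.84 ± 0.12 (n = 4) in D1, D2 and D3. The gap between the probes exceeded that in D0 by 1.01, 1.34 and 1.44 on the log2 scale, and it was wider in every dosed mouse than in any D0 mouse. The pair of probes was compared after their values were seen, so these values are a description with no test. The remaining Ces2c probe (A_52_P318361) was well above background in 2 of 5, 2 of 4, 1 of 5 and 2 of 4 mice and was not tested. Its ratios lay between -0.26 and 0.40 in the 18 mice, with all groups overlapping.

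Ces2e also had a second probe (A_51_P179919), which was dim. It was well above background in no D0 or D2 mouse and in 1 mouse each of D1 and D3, so it was not tested and no fold is given for it. Its log2 ratios were -0.24 to 0.10 in D0, -0.03 to 0.52 in D1, 0.13 to 0.56 in D2 and 0.36 to 0.66 in D3, and the D2 and D3 mice all lay above the D0 mice. Probe sequences were not used here, so which transcripts or related genes each probe detects, including hybridization between close relatives of the Ces2 group, was not tested.

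**Figure D3:**
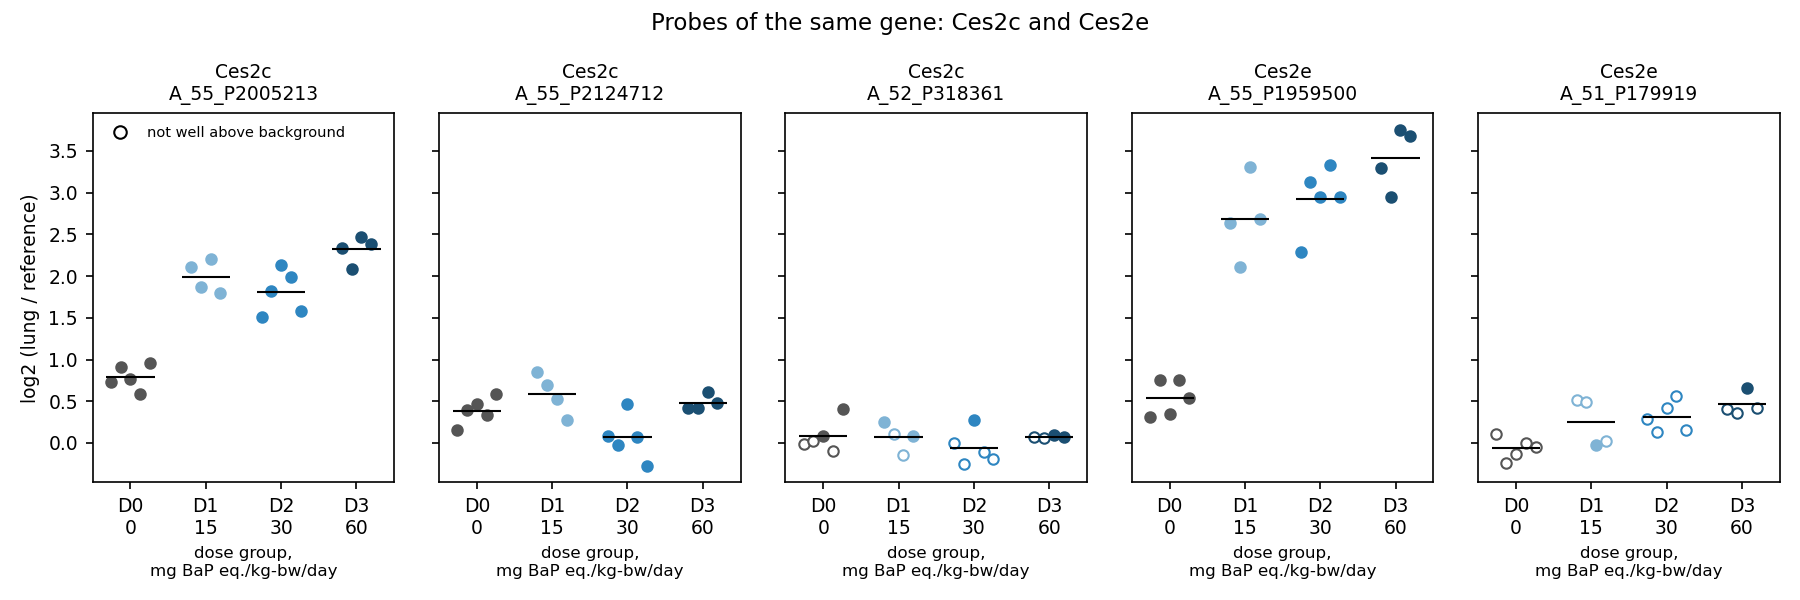
Log2 ratio of lung over reference RNA (shared vertical axis) for the 3 probes of Ces2c and the 2 probes of Ces2e, by dose group in mg BaP equivalents per kg body weight per day, with 1 point per mouse and a bar at the group mean. Open points mark mice in which the lung signal was not well above background. The first Ces2c probe rises from 0.79 in D0 to 2.32 in D3. The second has means of 0.39, 0.58, 0.07 and 0.48 in D0, D1, D2 and D3, and the second Ces2e probe is mostly open.

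Ces2b, the member that precedes Ces2c in the gene table, was highest at the lowest dose. Its single probe (A_52_P627269, NM_198171) gave log2 ratios of 1.29, 1.13, 1.19, 1.07 and 1.40 in D0, 2.52, 2.30, 2.31 and 2.03 in D1, 1.34, 2.10, 2.22, 1.62 and 2.05 in D2, and 1.63, 1.75, 2.08 and 1.90 in D3. All D1 and D3 mice lay above the D0 mice, and in D2 mouse 26 lay among them. The change was 1.07 at D1 (SE 0.15, 2.10-fold, limma adjusted p = 0.000802), 0.65 at D2 (SE 0.14, 1.57-fold, adjusted p = 0.0197) and 0.62 at D3 (SE 0.15, 1.54-fold, adjusted p = 0.011). D2 and D3 lay below D1 by log2 differences of -0.42 (SE 0.15) and -0.45 (SE 0.16), neither of which passed adjustment (adjusted p = 0.371 and 0.43). The calls of Ces2b at D2 and D3 were close to the thresholds. At D2 the adjusted p was 0.0511, 0.0513, 0.0529 and 0.0561 without mouse 3 or mouse 4 of D0 or mouse 28 or mouse 29 of D2, and at D3 the change was 0.54 without mouse 34, which is under 1.5-fold. The reference channel of this probe was well above background in 5 of the 18 mice.

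The remaining Ces2 members showed no called change. Ces2g (A_52_P267824, NM_197999) had log2 ratios of -0.70 to 0.05 in D0, -0.37 to 0.06 in D1, -0.31 to 0.07 in D2 and -0.23 to 0.37 in D3, with every dosed group overlapping D0. Its changes were 0.05, 0.11 and 0.26 (SE 0.14, 0.13 and 0.14), with limma adjusted p of 0.894, 0.782 and 0.246. Ces2a, known from liver and intestine, was well above background by its probe (A_55_P2293013) in 1 D0 mouse and in no other and was not tested. Its ratios lay between -0.14 and 0.38 in all mice.

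Among the Ces1 members none was called at any dose with the loess-normalized ratios. With the scanner software's processed signals Ces1g was called at D3. Ces1d, a triglyceride hydrolase, had the highest ratio of lung over reference among the tested members (A_51_P375969, NM_053200), which sets the lung against the cell lines and does not rank the genes in the lung. Its log2 ratios were 6.50, 6.27, 6.67, 7.21 and 6.71 in D0, 6.65, 6.38, 7.05 and 6.54 in D1, 6.84, 6.39, 6.77, 6.96 and 7.05 in D2, and 6.40, 6.49, 6.71 and 6.71 in D3. All 4 groups overlapped, and the changes were -0.02, 0.13 and -0.09 (SE 0.17, 0.16 and 0.17), with limma adjusted p of 0.973, 0.774 and 0.773.

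Ces1e, also called egasyn, a protein that holds beta-glucuronidase in the endoplasmic reticulum, ranged from 2.89 to 3.26 in D0, 2.61 to 3.47 in D1, 2.83 to 3.19 in D2 and 2.67 to 3.06 in D3 (A_51_P369784, NM_133660). Ces1f, a relative of Ces1d with triglyceride hydrolase activity, ranged from 3.09 to 4.27, 3.27 to 3.71, 3.27 to 4.13 and 3.47 to 3.59 in the same order (A_51_P178772, NM_144930). For both genes the dosed groups overlapped D0. The changes of Ces1e were 0.0016, 0.05 and -0.14 and those of Ces1f -0.14, 0.07 and -0.04, with limma adjusted p of at least 0.57. In no mouse did the reference signal of Ces1f or Ces1g stand well above background, so that side of their ratios lies in the background.

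Ces1g, known for its part in hepatic lipid metabolism, had the largest uncalled changes at D2 and D3 in the Ces1 group (A_51_P253481, NM_021456). The log2 ratios were 0.67, 0.99, 1.13, 1.41 and 0.99 in D0, 1.39, 1.30, 0.90 and 0.92 in D1, 1.55, 1.33, 1.31, 1.40 and 1.46 in D2, and 1.54, 0.86, 1.85 and 1.48 in D3. In D2 2 of 5 mice and in D3 3 of 4 mice lay above the highest D0 mouse. The changes were 0.09 (SE 0.16), 0.37 (SE 0.16) and 0.39 (SE 0.16), with limma adjusted p of 0.83, 0.256 and 0.133. With the scanner software's processed signals they were 0.90, 0.56 and 1.55, with limma adjusted p of 0.265, 0.582 and 0.0302, so that Ces1g was called at D3. Ces1c, the esterase of mouse plasma, was well above background in 1 D1 mouse and in no other (A_51_P394172) and was not tested, with log2 ratios of -0.77 to 0.25.

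The members differed in how far they followed Ces2e across the 18 mice. The Pearson correlation of log2 ratios with the bright Ces2e probe was 0.95 for the bright Ces2c probe (Spearman 0.85), 0.67 for Ces2b (0.49), 0.51 for Ces1g (0.48) and 0.45 for Ces2g (0.55), and between -0.05 and 0.07 for Ces1d, Ces1e, Ces1f and the second Ces2c probe. These values are descriptions, since the mice of a group share their dose and all arrays share the reference. With the group means removed, 28 pairs of the 8 tested genes were compared by permutation tests (100000 permutations, 2-sided) and none passed adjustment over the pairs. The highest were that of Ces1d with Ces1e, with r = 0.61 (p = 0.0119, adjusted p = 0.244), Spearman 0.56 (p = 0.0292, adjusted p = 0.273), r = 0.49 without the 2 mice farthest out and 0.61 with slide removed, and that of Ces2c with Ces2e, with r = 0.62 (p = 0.0174, adjusted p = 0.244), Spearman 0.63 (p = 0.0119, adjusted p = 0.273), r = 0.60 without the 2 mice farthest out and 0.69 with slide removed. By the same permutation test Ces2b with Ces2e gave r = 0.01 (p = 0.967, adjusted p = 0.967).

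Outside the family, 9 of 14727 gene symbols had a higher correlation with Ces2e than Ces2c had. The 5 highest, each by its brightest probe, were Serp2 (r = 0.98), which encodes a membrane-associated protein of the endoplasmic reticulum, Ahrr (0.97), the repressor of the AHR, Ier5 (0.97), an immediate early gene, Ramp3 (0.96), a receptor activity-modifying protein, and Phlda3 (0.96), a pleckstrin homology domain protein. The log2 changes at D3 were 1.57 for Serp2, 0.84 for Ier5, 1.92 for Ramp3 and 2.19 for Phlda3. Ahrr was well above background in the lung channel in 1 of 5 D0 mice, and its change at D3 was 1.84, or 3.76 with the scanner software's processed signals. These genes were chosen for the likeness, and it carries no test.

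The differences from D0 had the same direction on each slide for Ces2b, Ces2c (bright probe) and Ces2e. Each of the 3 slides held all 4 groups, and the difference from D0 could be taken within a slide. For Ces2e it was 1.84, 2.76 and 2.14 at D1 on slides 1, 2 and 3, 2.50, 2.60 and 1.75 at D2, and 2.59, 3.23 and 3.03 at D3. For Ces2c it was 1.17, 1.52 and 0.84 at D1, 1.16, 1.11 and 0.55 at D2, and 1.40, 1.74 and 1.43 at D3. For Ces2b it was 1.20, 1.18 and 0.63 at D1, 0.51, 0.79 and 0.65 at D2, and 0.48, 0.91 and 0.38 at D3. Slide 3 held 1 array per group, and its D3 array was the second array of mouse 35, whose first array was on slide 2, so that the D3 values of slides 2 and 3 share a mouse. Dose and array column cannot be told apart, since each slide carried D0 in its first column and D3 in its last. The mouse labelled D2 number 23 has a number that falls among those of D1. Without it the Ces2e change at D2 was 2.55, and with it counted in D1 the D1 change was 2.06.

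**Figure D4:**
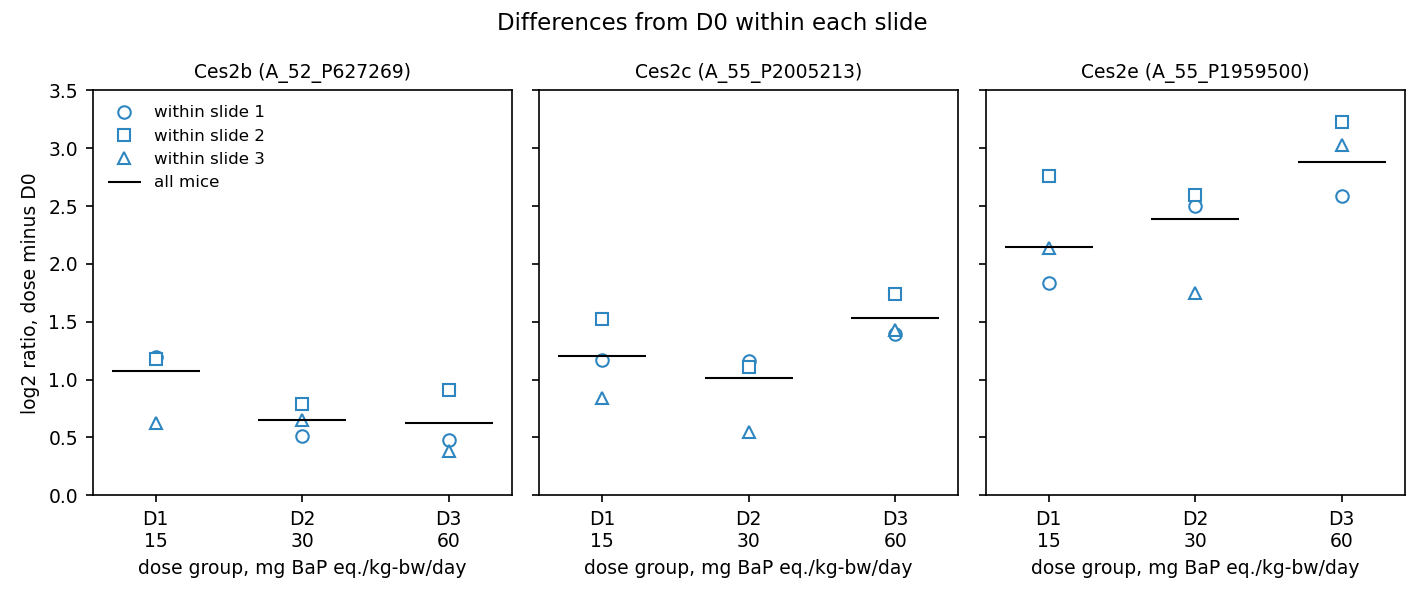
Difference in log2 ratio from D0 (vertical axis) for Ces2b, Ces2c (bright probe) and Ces2e at each dose in mg BaP equivalents per kg body weight per day, taken within slides 1, 2 and 3 (open symbols), with the limma estimate over all mice as a bar. Every within-slide difference lies above 0, the lowest being 0.38 for Ces2b at D3 on slide 3.

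Lists of related genes were described alongside the family. The 7 other carboxylesterase symbols with a probe on the array, Ces1a, Ces1b, Ces2f, Ces3a, Ces3b, Ces4a and Ces5a, did not pass the filter, so neighbours of Ces2e such as Ces2f gave no test. Of 14 other esterases and xenobiotic hydrolases 12 were tested, and 1 passed at each dose, where 1.06%, 0.626% and 2.43% of all tested probes were called at D1, D2 and D3. This was Ephx1 (A_55_P2002578, NM_010145), the microsomal epoxide hydrolase, which hydrolyses epoxides that cytochrome P450 enzymes form from PAHs. Its log2 ratios ranged from 1.09 to 1.67 in D0, 2.12 to 2.37 in D1, 2.23 to 2.59 in D2 and 2.71 to 3.01 in D3, with no dosed mouse among the D0 mice. It rose by 0.77 (SE 0.11, limma adjusted p = 0.000802), 0.99 (SE 0.10, adjusted p = 1.87e-05) and 1.38 (SE 0.11, adjusted p = 1.3e-07). With each array centred on its median the Ephx1 changes at D1 and D2 were 1.09 and 1.15 and were not called (adjusted p = 0.386 and 0.309). The median log2 change of the 12 was 0.09, 0.07 and 0.19. None of 9 tested lipid hydrolases and none of 4 tested regulators of such enzymes (Nr1i2, Nr1i3, Nfe2l2 and Ppara) was called, to be read against the same low shares over all probes. Nr1i2 was dim. Its lung signal was well above background in 4 of 5, 2 of 4, 4 of 5 and 3 of 4 mice of D0, D1, D2 and D3, and its reference signal in none. At D3 the genes of these lists that passed the adjusted p but not the 1.5-fold threshold were Abhd5 (0.42, limma adjusted p = 0.00723) and Abhd6 (0.37, adjusted p = 0.00758) of the lipid hydrolases and Esd (0.28, adjusted p = 0.0131) and Nceh1 (-0.30, adjusted p = 0.0377) of the other hydrolases, where 12.4% of all tested probes passed the adjusted p. All 4 D3 mice lay above the D0 mice for Abhd5, Abhd6 and Esd, and 2 of 4 lay below them for Nceh1. The list medians were 0.14, -0.15 and 0.04 for the lipid hydrolases and -0.11, 0.03 and -0.11 for the regulators.

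Markers of cell types in or near the lung were set beside these results. The defining genes of alveolar type 2 (5 of 5), alveolar type 1 (3 of 3 with a probe), club (3 of 3 with a probe) and endothelial cells (3 of 3) passed the filter, and Alb, Apoa1 and Ttr, which define hepatocytes, and Lep of adipocytes did not. The sum of the ratios of the club cell genes, on the linear scale, ran from 285 to 637 in D0, 245 to 449 in D1, 266 to 590 in D2 and 241 to 449 in D3, and that of the type 2 genes from 329 to 650, 302 to 557, 369 to 655 and 282 to 469. The type 1 sums were 108 to 173, 96.7 to 141, 110 to 149 and 89.2 to 124, and the endothelial sums 179 to 297, 166 to 319, 200 to 290 and 196 to 266. The 4 tested adipocyte genes summed to 21.6 to 73.5, 35.6 to 152, 20.0 to 66.4 and 14.4 to 123, the 4 macrophage genes to 63.9 to 81.0, 63.3 to 108, 36.7 to 83.7 and 67.6 to 93.1, and the 2 tested hepatocyte genes to 11.9 to 21.0, 14.0 to 32.2, 7.83 to 26.1 and 9.03 to 17.5. For each list the sums of every dosed group overlapped those of D0. Such a sum is led by the genes with the highest ratio over the reference. For club cells this was Scgb1a1, with a mean log2 ratio of 8.06 in D0, against 6.67 for Cyp2f2 and 4.84 for Scgb3a1. The median change of the tested genes at D1, D2 and D3 was -0.33, 0.0034 and -0.37 for club cells, -0.36, -0.07 and -0.32 for type 2 cells and -0.40, -0.14 and -0.39 for type 1 cells, with no gene called. It was 0.07, 0.19 and 0.27 for endothelium, -0.13, -0.73 and -0.47 for macrophages, 0.47, -0.03 and 0.10 for adipocytes and 0.31, -0.34 and -0.35 for hepatocytes. Of the 24 tested marker genes the numbers past both thresholds were 1 (D1), 1 (D2) and 3 (D3), beside the 1.06%, 0.626% and 2.43% of all tested probes, and the other genes of those lists are given beside them. Pecam1 of endothelium was higher at D1 (0.67) and D3 (0.66), where Cdh5 differed by 0.07 and 0.27 and Cldn5 by -0.25 and -0.17. Siglecf of alveolar macrophages was lower at D2 (-1.05), where Chil3 differed by -1.39, Mrc1 by -0.40 and Marco by 0.37. At D3, where neither was called, Siglecf differed by -0.64 with all 4 mice below the D0 mice, and Marco by 0.94 with all 4 mice above them. At D3 Fabp1 of the hepatocyte list (-0.94) and Cidec of the adipocyte list (-0.70) were lower, where Serpina1a differed by 0.24, Adipoq by 0.41, Plin1 by 0.27 and Cfd by -0.07. Abca3 of type 2 cells differed by -0.48 at D3 (limma adjusted p = 0.0112), under the 1.5-fold threshold, with all 4 mice below the D0 mice. In whole lung, more cells of a type and more RNA per cell cannot be told apart, and the part of cell composition in the Ces2 changes was not tested.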

How the data were processed

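Lung RNA of 18 mice was measured on 19 Agilent 2-colour arrays. The authors deposited scanner files with spot intensity values, extracted with Feature Extraction 11.0.1.1 per the file headers, and a table of log2 ratios that the authors had normalized. The members and gene lists were chosen with earlier results of these data known.

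Following the study's methods, median intensities were used with no background subtracted. Each array was normalized by loess with a span of 0.3. Of 62976 spots, 3671 controls and spots marked as outliers were left out. Spots of a probe and the 2 arrays of mouse 35 were averaged. No dyes were swapped, so ratios are open to dye bias. A probe was tested where lung signal was well above background in at least 4 mice of a group (30999 of 55681 probes). The share of spots so marked was 54.5% to 64.7% per array in the lung channel, no spot was saturated, and the number of arrays limits the precision. Of 22765 RefSeq-type identifiers, 21465 matched a symbol of assembly GRCm38.p6, and probe positions are not used here.

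Groups were taken as labelled. A limma model (version 3.58.1, R 4.3.3) held all 4 groups, and calls needed 1.5-fold and an adjusted p (Benjamini-Hochberg) within 0.05. The study's MAANOVA test with residual shuffling was not run. By the methods' group sizes D1 would hold 1 mouse more, and D2 1 fewer, than by the labels. The fit was tested on simulated data. Named were all member probes, called genes of the hydrolase and regulator lists, and the 5 symbols most like Ces2e. Marker genes and uncalled list genes were named after their values were seen and, like the 4 untested member probes, were not carried through the alternatives. Alternatives were other background corrections, scalings and filters, the deposited log2 table, the lung channel alone, slide as a block, mouse 23 left out or moved, either array of mouse 35, each mouse left out, and D0 with 1 dose alone. Promoter windows were aligned with Biopython 1.88 (match 1, mismatch -1, gap -5 and -1).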

Additional observations from a re-analysis of the deposited data

Results flagged for a closer look

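Ces1e (A_51_P369784) stood out in 1 mouse. D0 mouse 4 had a log2 ratio of 3.2633, away from the other 4 D0 mice at 2.89 to 2.98 by more than Dixon's 95% critical value for 5 samples. It was 1 of 52 groups of member values checked and no other was marked, where chance marks about 1 in 20. The same mouse also had the highest D0 values of Ces1d (7.21), Ces1f (4.27) and Ces1g (1.41).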

How the results depend on the processing

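Under 31 alternatives per dose the Ces2e change kept its direction, with D1 values of 1.93 to 2.37, D2 values of 2.29 to 2.68 and D3 values of 2.76 to 3.26. The D3 value of 3.26 came from the lung channel alone. It lay farther from the loess-based D3 change of 2.88 than the D3 SD of 0.37. Centring each array on its median, without loess, moved the median change of all probes to 0.17, 0.12 and 0.06, and cut the calls over all probes from 328, 194 and 754 to 12, 18 and 98. With it 2, 1 and 2 member probes were past the thresholds at D1, D2 and D3, counts that include Ces2e as a description, and Ces2c was not called at D2 (1.08, adjusted p = 0.0525). The scanner software's processed signals gave 639, 348 and 1370 calls over all probes and added Ces1g at D3 (1.55, adjusted p = 0.0302). Ces2b was the least stable member. Its call was lost at every dose under median centring (changes of 1.13, 0.70 and 0.60, adjusted p = 0.106, 0.606 and 0.633), at D2 and D3 with processed signals (1.16 and 1.00, adjusted p = 0.12 and 0.109), at D2 and D3 in the lung channel alone (changes of 0.48 and 0.40), at D3 in the deposited log2 table (0.57), and at D2 with D0 and D2 alone (adjusted p = 0.0548). Ephx1 was not called at D1 and D2 under median centring (changes of 1.09 and 1.15, adjusted p = 0.386 and 0.309). The causes were not tested. Leaving out each mouse in turn left 3 member probes, Ces2e included, past the thresholds at D1 and 2 to 3 at D2 and at D3. The groups share no animal numbers, so mice could not be paired by number, and with slide as a block 3 member probes, Ces2e included, were past the thresholds at each dose. Signals near background limit Ces1c, Ces2a and the second Ces2e probe.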
